A study of Mus musculus with 18 samples.

Results

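This account covers the nuclear-encoded subunits of complexes III, IV and V of the mitochondrial respiratory chain in the hearts of adult mice after deletion of the serum response factor gene (Srf), with and without phenylephrine (PE). The 38 genes were listed by name, and for each the probe set with the highest mean signal among those the platform annotation gives to that gene alone was taken. Of the 38, 37 had such a probe set and all 37 passed the filter on low signal, out of 12610 genes tested. They were 9 genes of complex III, 12 of complex IV, 15 of complex V (ATP synthase) and Cycs, cytochrome c, which was kept apart. Cox7b, a complex IV subunit, had no probe set assigned to it alone and was not measured here.

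Affymetrix arrays were used to measure ventricular expression in 18 male mice, 1 heart per array, whose strain is given as CR7BL6 and whose age is given as 10 weeks. At day 8 there were 4 SRFHKO hearts and 2 control hearts. At day 25 there were 3 SRFHKO hearts, 3 control hearts, 3 SRFHKO hearts with PE and 3 control hearts with PE. SRFHKO is the mutant in which Srf is deleted, and the controls were littermates that carry the SRF-flex2neo allele. Every mouse of both genotypes had received tamoxifen, 0.7 mg for 3 days, so the dose did not differ between the groups. An effect of tamoxifen that differs between the genotypes was not tested. PE, which activates alpha-1 adrenergic receptors and is used to load the heart, was infused from day 10 until day 25 at 80 mg/kg/day through an osmotic minipump. The labels do not name the Cre line that deletes Srf or the cells in which it acts.

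Complex III takes electrons from ubiquinol and passes them to cytochrome c, complex IV (cytochrome c oxidase) passes them on to oxygen, and ATP synthase uses the proton gradient that the chain builds to make ATP. The adult heart is packed with mitochondria and depends on this chain for nearly all of its ATP. Most subunits come in 1 form, but 3 subunits of complex IV exist as a form that predominates in heart and skeletal muscle (Cox6a2, Cox7a1, Cox8b) and a form found in most tissues (Cox6a1, Cox7a2, Cox8a).

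The deposited signal differed in brightness between arrays, with trimmed means of 46.6 to 148, and every array was therefore scaled to a common trimmed mean of 90.6. Levels below are this scaled signal, and differences are on the log2(scaled signal + 2) scale with their standard error. At day 25 the SRFHKO arrays were brighter before scaling than the control arrays without overlap, at 71.2 to 83.5 against 46.6 to 68.5 without PE and at 75.9 to 85.4 against 52.5 to 75.3 with PE. Every day-8 array was brighter than every day-25 array, at 110 to 148 against 46.6 to 85.4. Day and array brightness therefore cannot be told apart. Log2 levels correlated between arrays at r = 0.925 to 0.973, and the number of arrays limits the precision. The ratio of 3′ to 5′ Gapdh signal reflects how intact the RNA was. At day 25 without PE it lay at 0.820 to 0.835 in SRFHKO and 0.868 to 0.945 in control hearts. At day 8 it was also lower in SRFHKO without overlap, at 0.8497 to 0.9364 against 1.006 to 1.022. At day 25 with PE the genotypes overlapped, at 0.8236 to 0.8625 in SRFHKO against 0.8455 to 0.9002 in control hearts. All 10 cardiomyocyte markers were measured, and none of the measured markers of any cell type was at 0. A measured marker is one that passed the filter on low signal, so this does not check which cells were present. Of all marker genes, 1 passed in each of 2 comparisons: the endothelial gene Cldn5 was lower in SRFHKO than in control hearts at day 25 without PE (-0.81 ± 0.19, limma adjusted p = 0.0309), and the fibroblast gene Postn was higher with than without PE in SRFHKO hearts (1.83 ± 0.34, limma adjusted p = 0.0254). Srf itself was read by 2 probe sets, and the brighter had 141 to 197 in SRFHKO against 163 to 199.7 in control hearts at day 25, a difference of -0.057 ± 0.19 (limma adjusted p = 0.911 over all probe sets). The second had 30.5 to 55.6 against 60.9 to 67.5 (-0.54 ± 0.19, limma adjusted p = 0.148). At day 25 with PE the brighter differed by -0.195 ± 0.19 and the second by 0.015 ± 0.19, and at day 8 by 0.23 ± 0.20 and 0.27 ± 0.20, and neither passed in any of these comparisons. No source used here says whether either probe set falls in the deleted part of the gene, so neither can check the genotype, and SRFHKO below means the hearts labelled so.

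At day 25 without PE, 3 subunit genes fell and 1 rose in SRFHKO hearts (limma, adjusted p below 0.05). The genes that fell were Uqcrc1 and Uqcr11 of complex III and Atp5g1 of ATP synthase, and the gene that rose was Cox8a of complex IV. Over all genes tested, 2.48% passed in either direction, 1.21% as lower and 1.28% as higher, against 3 of 37 lower and 1 of 37 higher among the subunit genes. Of the 232 other genes as bright as the 35 brighter subunit genes, 9.05% passed as lower and 1.29% as higher, so the count of subunit genes that fell was close to the share among equally bright genes. The differences of the other 33 genes did not pass, but nearly all had the same sign: 34 of the 37 values lay below 0, and their median was -0.24. That median was -0.047 over all genes tested, and -0.12 over the 232 equally bright genes. Below 0 lay 55.8% of all genes and 71.6% of the equally bright genes. In 27 of the 37 the SRFHKO and control arrays did not overlap and SRFHKO was lower, which 12.6% of all genes and 37.1% of the equally bright genes showed. In 1, Cox8a, SRFHKO was higher without overlap, as 9.22% of all genes were. The 4 calls became 1 without SRFHKO replicate 2 and 2 without control replicate 3, and were 3 to 5 without any other of the 6 arrays.

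The medians of the complexes lay close together. The median difference was -0.26 in complex III, -0.25 in complex IV and -0.23 in complex V, and the Cycs difference was -0.066 ± 0.11. All 9 values of complex III were below 0, as were 10 of 12 in complex IV and 14 of 15 in complex V. The spread was widest in complex IV, from -0.45 for Cox7a1 to 0.62 for Cox8a, against -0.45 to -0.17 in complex III and -0.41 to 0.0085 in complex V. The 33 measured subunits of complex I, which stands at the entry of the chain, had a median of -0.27, with 7 lower and 0 higher past the threshold. In these bulk samples, fewer cells of a type and less RNA per cell cannot be told apart. The summed signal of the 10 cardiomyocyte markers was 79829 to 95502 in SRFHKO and 100577 to 107956 in control hearts, with no marker at 0. The sum of the 9 endothelial markers was also lower in SRFHKO without overlap, at 2296 to 2417 against 2626 to 3283, and so was that of the 2 measured skeletal muscle markers, at 26.4 to 39.3 against 44.5 to 59.97. Cidea, the measured brown adipocyte marker, was higher, at 527 to 591 against 340.3 to 455, while the fibroblast, macrophage and adipocyte sums overlapped. The part of these markers, of array brightness and of the Gapdh ratio in the result was not tested.

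**Figure D1:**
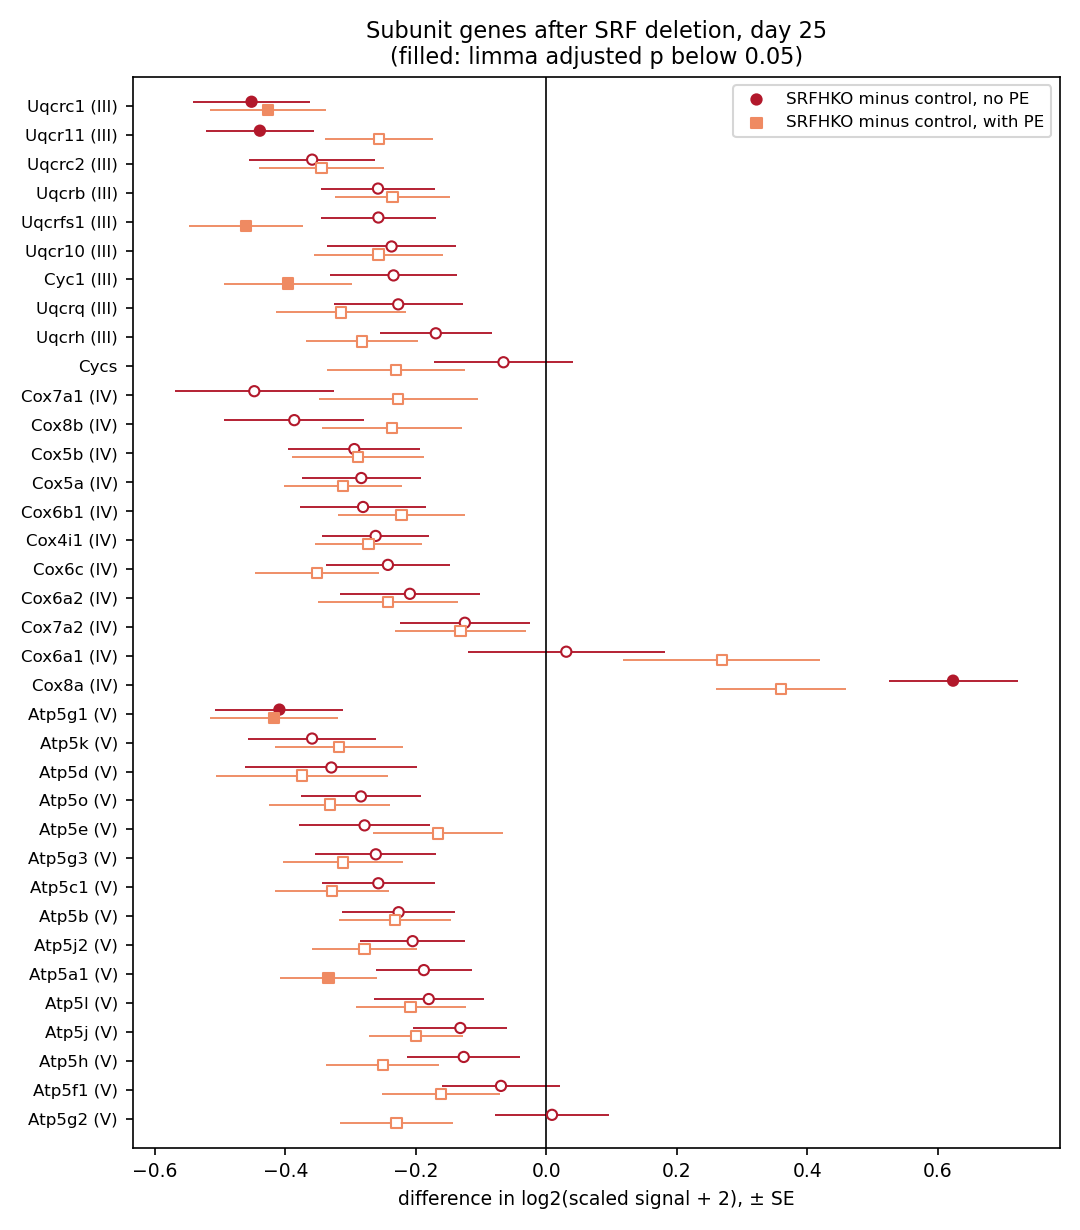
Difference between SRFHKO and control hearts at day 25 in log2(scaled signal + 2), with its SE, for 36 subunit genes in rows, without PE (circles) and with PE (squares). Filled symbols passed limma's adjusted p of 0.05. Cox7c, read only by a dim probe set, is left out. Nearly all genes lie left of 0 in both comparisons, while Cox8a lies to the right in both.

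Uqcrc1, a core protein of complex III, had a scaled signal of 3816, 3264 and 3755 in the 3 SRFHKO hearts, against 5100.4, 4696 and 5000.1 in the 3 control hearts. Every SRFHKO value lay below every control value, and Uqcrc1 fell by 26.9% (-0.45 ± 0.089, limma adjusted p = 0.0136). Uqcr11, a small subunit of complex III, had 4613, 3806 and 4166 in SRFHKO hearts, against 5664, 5458 and 5900.3 in control hearts. It fell by 26.2% without overlap (-0.44 ± 0.082, limma adjusted p = 0.0102). Both calls were lost when brightness was made a covariate (-0.35 and -0.34), when arrays were put on a common median and when only the compared groups were fitted. The Uqcrc1 call was also lost without SRFHKO replicate 2 (limma adjusted p = 0.0647) or control replicate 3 (0.0541), and the Uqcr11 call without SRFHKO replicate 2 (0.0577). Uqcrc2, the second core protein, differed by -0.36 ± 0.096 and missed the threshold (limma adjusted p = 0.0556). The remaining 6 genes were Uqcrfs1 (the Rieske iron-sulfur protein), Cyc1 (cytochrome c1), Uqcrb, Uqcrq, Uqcrh (the hinge protein) and Uqcr10. Their differences lay between -0.26 and -0.17, with adjusted p from 0.123 to 0.303, and the 2 genotypes overlapped only for Uqcrh.

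Among the ATP synthase genes, Atp5g1 fell. It is 1 of 3 genes, with Atp5g2 and Atp5g3, that encode the c subunit of the rotating ring. Its signal was 7314, 6001 and 7123 in SRFHKO hearts, against 9324, 8370.0 and 9385 in control hearts. The groups did not overlap, and Atp5g1 fell by 24.7% (-0.41 ± 0.098, limma adjusted p = 0.0321), a call that held under 6 of 16 alternative settings. It was lost without SRFHKO replicate 2 or 3 or control replicate 1 or 3 (limma adjusted p from 0.0789 to 0.145). Atp5g3 differed by -0.26 ± 0.092 and Atp5g2 by 0.0085 ± 0.087, the only ATP synthase value above 0, and neither passed (limma adjusted p = 0.138 and 0.97). The 5 subunits of the catalytic F1 head, Atp5a1, Atp5b, Atp5c1, Atp5d and Atp5e (alpha, beta, gamma, delta and epsilon), differed by -0.19, -0.23, -0.26, -0.33 and -0.28, and none passed. Of the other genes of the stalk and membrane part, Atp5k had the value farthest below 0 (-0.36 ± 0.099, limma adjusted p = 0.0609) and Atp5f1, subunit b, the value nearest 0 (-0.070). Atp5o, Atp5j2, Atp5l, Atp5j and Atp5h lay between them, and none passed.

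Complex IV held the subunit gene that rose. Cox8a, the form of subunit 8 found in most tissues, had a scaled signal of 1242, 1146 and 1206 in SRFHKO hearts, against 802, 694 and 841 in control hearts at day 25 without PE. All SRFHKO values were above all control values, and Cox8a was 1.54-fold higher (0.62 ± 0.099, limma adjusted p = 0.00375). The call held in all 16 alternative settings, with differences of 0.54 to 0.845. A second Cox8a probe set also rose, with 1186, 1039 and 953 against 666, 632 and 793 (0.60 ± 0.12, limma adjusted p = 0.0188 over all probe sets). Cox8b, the heart and muscle form of the same subunit, had 6391, 5337 and 6879 in SRFHKO hearts, against 7727, 7836 and 8659.8 in control hearts. Its groups did not overlap either, with SRFHKO lower, but the difference missed the threshold (-0.39 ± 0.11, limma adjusted p = 0.0635).

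The difference between 2 isoforms within 1 array hardly depends on the factor by which an array is scaled. An effect of array brightness that differs between dim and bright genes would not cancel. Cox8a is much dimmer than Cox8b, and such an effect was not tested. The log2 difference Cox8b minus Cox8a was lower in SRFHKO than in control hearts without overlap at day 25, by a change of -1.01 ± 0.11 without PE and -0.60 ± 0.11 with PE. At day 8 the change was -0.020 ± 0.11, and the groups overlapped. These isoforms were singled out after earlier results were known, so no p is given. For Cox6a2 minus Cox6a1, on the brighter Cox6a2 probe set, it was -0.24 ± 0.16 at day 25 without PE, with overlap, and -0.51 ± 0.16 with PE, without overlap. At day 8 it was 0.44 ± 0.17, with SRFHKO higher without overlap. For Cox7a1 minus Cox7a2 it was -0.32 ± 0.14 without PE and -0.095 ± 0.14 with PE at day 25, with overlap in both.

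**Figure D2:**
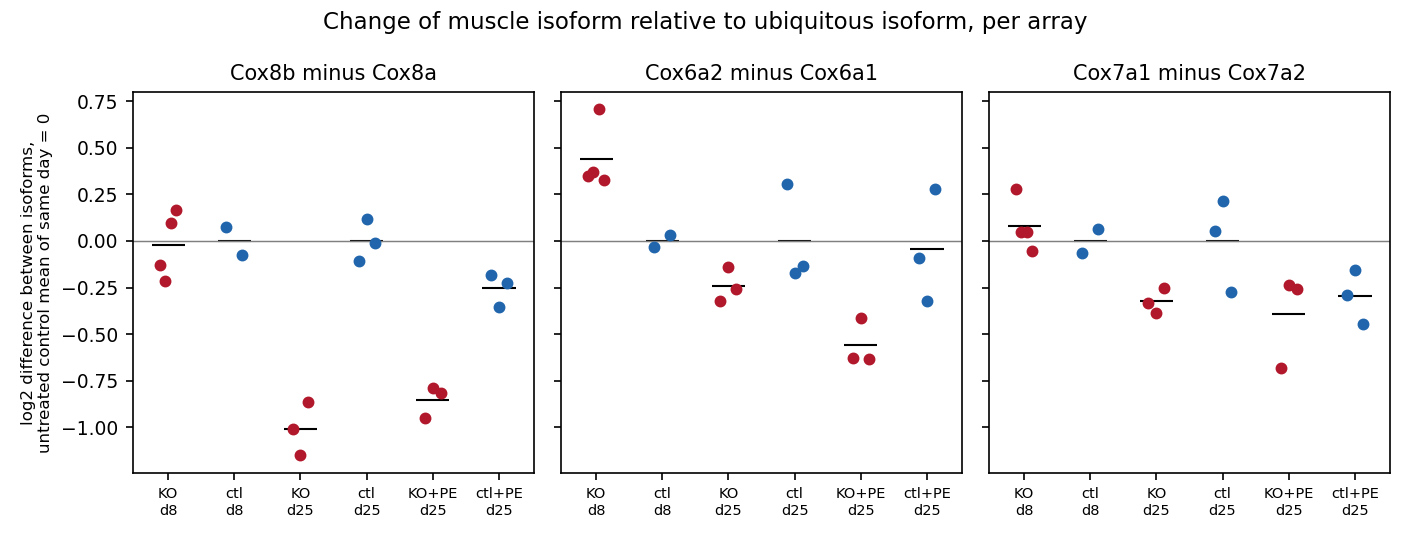
Change of the log2 level of the muscle isoform minus the isoform found in most tissues, for each array, with the mean of untreated control hearts of the same day set to 0 and group means as bars. KO is SRFHKO (red) and ctl is control (blue). For Cox8b minus Cox8a, the SRFHKO arrays of day 25 lie below the control arrays with and without PE, and those of day 8 overlap theirs.

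Cox7a1, the muscle form of subunit 7a, had 5498, 4983 and 6462 in SRFHKO hearts, against 7701, 8422 and 6928 in control hearts (-0.45 ± 0.12, limma adjusted p = 0.0593). The groups did not overlap, but the difference missed the threshold. Cox7a2 had 8438, 7937 and 9371 against 9041, 8838 and 10188, with overlap (-0.13 ± 0.10, limma adjusted p = 0.536). Cox6a1 had 3332, 2393 and 3272 against 2313, 3214 and 3295, again with overlap (0.030 ± 0.15, limma adjusted p = 0.938).

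The probe sets of Cox6a2, the heart and muscle form of subunit 6a, disagreed in size. The brighter one had 9593, 7791 and 9837 in SRFHKO hearts, against 10280.5, 10246 and 10787 in control hearts, and did not pass (-0.21 ± 0.11, limma adjusted p = 0.31). The second had 2441, 2112 and 2005 in SRFHKO hearts, against 4918, 5949 and 5459.5 in control hearts. It was 2.49-fold lower in SRFHKO (-1.32 ± 0.21, limma adjusted p = 0.00431 over 27000 probe sets) and kept its call in all 10 settings tried. With PE it had 1719.8, 1878 and 2108 in SRFHKO hearts, against 4735, 5317 and 2265 in control hearts (-1.02 ± 0.21, limma adjusted p = 0.0248). Here 1 control heart with PE lay near the SRFHKO values, and the call was lost in 5 of 10 settings: on the common median scale and without replicate 1 or 2 of either genotype (limma adjusted p from 0.0768 to 0.115). At day 8 it had 1699.7, 1735, 1795 and 1728 in SRFHKO and 2240.2 and 1599 in control hearts, which overlapped. This probe set was chosen after its values were seen, and it belongs to a class (x_at) whose probes can match other transcripts, so which transcripts it reads was not tested.

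**Figure D3:**
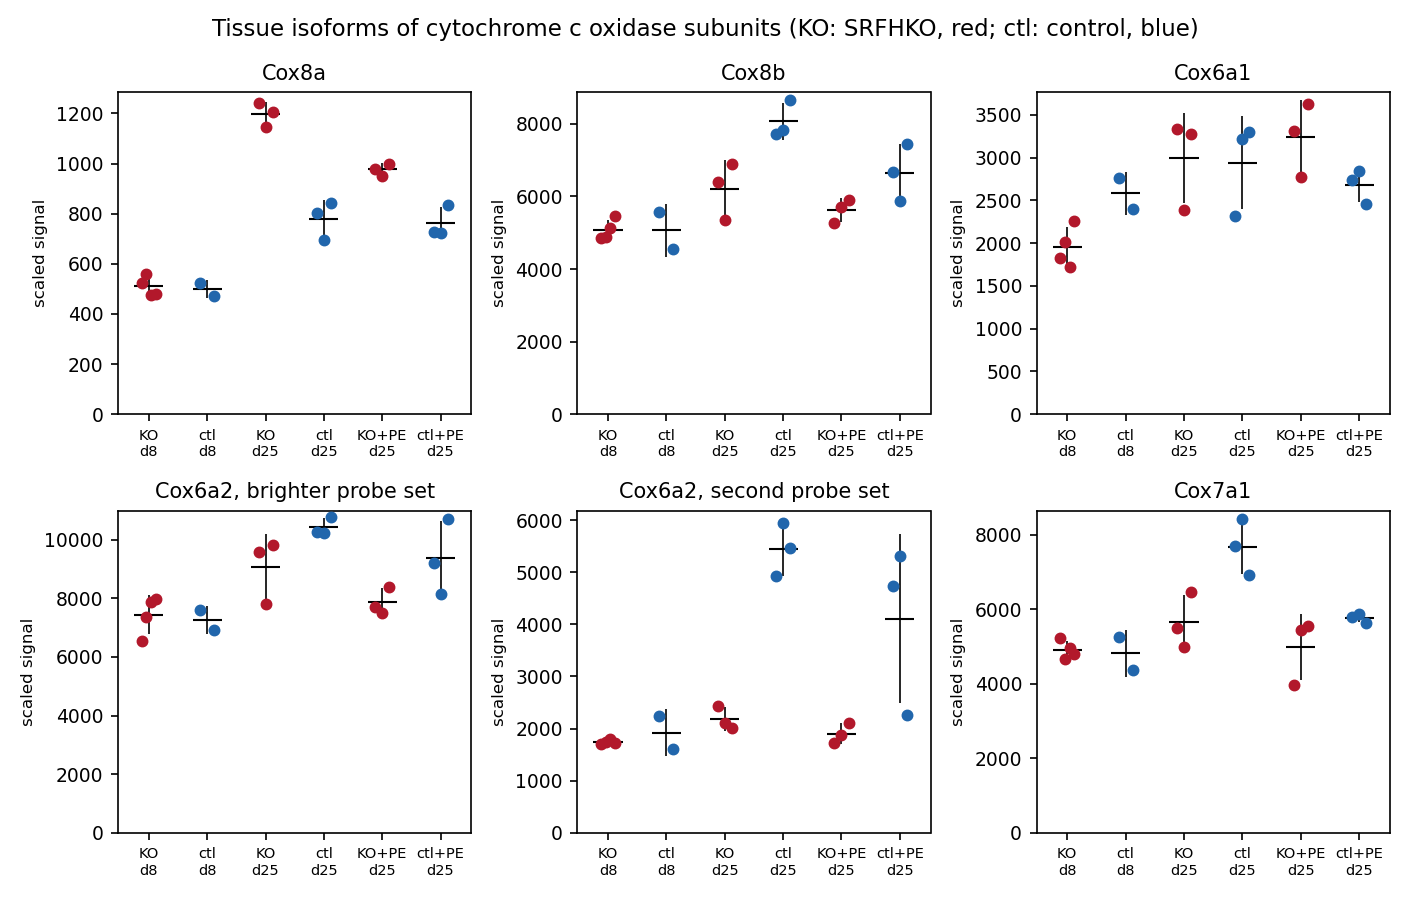
Scaled signal of complex IV isoforms in each of the 18 arrays, with the group mean and SD as bars. KO is SRFHKO (red) and ctl is control (blue). At day 25 without PE, Cox8a is higher and the second Cox6a2 probe set lower in SRFHKO than in control hearts without overlap, and the brighter Cox6a2 probe set differs less. At day 8 the groups overlap for all 3, and the test between the days passed for none.

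The other complex IV genes, each with 1 form considered here, lay close together. Cox4i1, the regulatory subunit 4, differed by -0.26 ± 0.082, Cox5a by -0.28 ± 0.091, Cox5b by -0.29 ± 0.10, Cox6b1 by -0.28 ± 0.097 and Cox6c by -0.24 ± 0.095. None passed (limma adjusted p from 0.0981 to 0.177), and none of the 5 overlapped between the genotypes. Cox7c was read only by a dim probe set, whose mean signal ranked 9775 of 12610 genes, and its differences (-0.037 ± 0.32 without and -0.80 ± 0.32 with PE) have the largest errors of the 37 genes.

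With PE at day 25, 5 subunit genes fell in SRFHKO hearts and none rose (limma, adjusted p below 0.05). They were Uqcrfs1, Uqcrc1 and Cyc1 of complex III and Atp5g1 and Atp5a1 of ATP synthase, so that Uqcrc1 and Atp5g1 passed in both day-25 comparisons. Over all genes tested 1.66% passed, 0.944% as lower and 0.714% as higher, and 9.48% of the equally bright genes passed as lower. The median of the 37 differences was -0.27, with -0.32 in complex III, -0.24 in complex IV and -0.28 in complex V, and it was -0.0042 over all genes and -0.18 over the other equally bright genes. In 27 of the 37 the SRFHKO hearts were lower without overlap, against 10.5% of all genes and 48.7% of the equally bright genes. The 5 calls became 0 without control replicate 3 or SRFHKO replicate 2, 1 without replicate 1 of either genotype and 2 without SRFHKO replicate 3. The 33 complex I subunits had a median of -0.32 with 10 lower past the threshold. The cardiomyocyte marker sum was 79187 to 83692 in SRFHKO with PE and 87896 to 104420 in control with PE, and Cidea had 468 to 649 against 379 to 465, while the sums of the other 5 marker lists overlapped. Their part in the result was not tested.

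Uqcrfs1, the Rieske iron-sulfur protein, had 3675, 3943 and 4113 in SRFHKO hearts with PE, against 5251, 5045 and 5864 in control hearts with PE. The 2 groups were apart, and Uqcrfs1 fell by 27.3% (-0.46 ± 0.088, limma adjusted p = 0.0117). The call was lost without control replicate 3 (limma adjusted p = 0.0724) or SRFHKO replicate 2 (0.0544), on the common median scale and with brightness as a covariate. Uqcrc1 had 3026, 3157 and 3217 against 4202, 4249 and 4179, also without overlap (-0.43 ± 0.089, limma adjusted p = 0.0194). This call was lost without replicate 1 or 3 of the controls or 1 or 2 of SRFHKO (limma adjusted p from 0.0654 to 0.0753), and under the same 2 settings as that of Uqcrfs1. Cyc1, cytochrome c1, had 5061, 5261 and 5761 against 6858, 7011 and 7273 (-0.40 ± 0.098, limma adjusted p = 0.0473). Its groups did not overlap, but the call lies at the edge of the threshold and was lost in 12 of 16 settings, among them without each of the 6 arrays in turn (limma adjusted p from 0.052 to 0.176). Uqcr11, which fell without PE, had 3721, 4009 and 4253 against 4661, 4516 and 5140.4 and missed the threshold with PE (-0.26 ± 0.082, limma adjusted p = 0.125).

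Atp5g1 had 5889, 5657 and 6259 in SRFHKO hearts with PE, against 8106, 7049 and 8689.9 in control hearts with PE (-0.42 ± 0.098, limma adjusted p = 0.0372). Atp5a1, the alpha subunit of the F1 head, had 6525, 6552 and 6736 against 8626, 7898 and 8466 (-0.33 ± 0.074, limma adjusted p = 0.0255). Neither gene overlapped between the groups, and each call was lost in 11 of 16 settings, among them without any 1 of the 6 arrays other than control replicate 2 (limma adjusted p from 0.052 to 0.177). Cox8a had 979, 950.2 and 999.9 against 729, 721 and 836, again higher in SRFHKO without overlap, as 9.71% of all genes were, but it missed the threshold here (0.36 ± 0.099, limma adjusted p = 0.0747). Cox8b had 5266, 5712 and 5904 against 6666, 5865 and 7434, with overlap (-0.24 ± 0.11, limma adjusted p = 0.308). The other isoform genes did not pass: Cox6a1 had 3308, 2779 and 3632 against 2733, 2842 and 2457, Cox7a1 had 3959, 5436 and 5564 against 5797, 5875 and 5639 and Cox7a2 had 7734, 7817 and 8115 against 8642, 7970.2 and 9369. For the brighter Cox6a2 probe set the values were 7707, 7509 and 8401 against 9213, 8162 and 10723, with overlap.

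The comparisons without and with PE at day 25 share no arrays. Of the 37 genes, 34 (91.9%) lay below 0 in both, as did 34.4% of all genes. Of the equally bright genes, 71.6% lay below 0 without PE and 84.5% with PE, and their share below 0 in both was not counted. Across the 37 genes the 2 sets of differences had a Pearson r of 0.59 and a Spearman rho of 0.42, or 0.57 and 0.48 without Cox7c and Cox8a (n = 35), against 0.31 and 0.31 over all genes. Genes are not independent replicates, and all genes of an array share its scaling, so these are descriptions with no p. The difference between the 2 comparisons, the interaction of PE and genotype, passed for 0 of the 37 genes (limma), where 0.0238% of all genes passed. None was lower at an unadjusted p below 0.05, as 3.1% of all genes and 5.6% of the equally bright genes were, and none was higher. The smallest p belonged to Atp5g2 (-0.24 ± 0.12, limma adjusted p = 0.691).

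**Figure D4:**
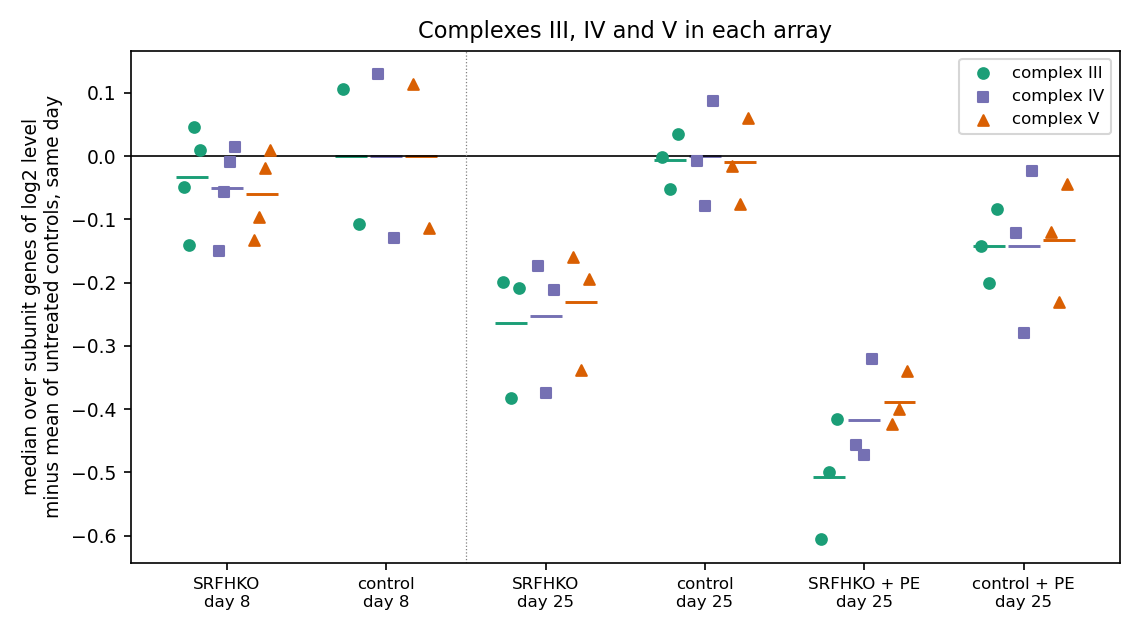
Median over the subunit genes of complexes III, IV and V in each array, as log2 level minus the mean of untreated control hearts of the same day, with group means as bars. At day 25 all SRFHKO arrays lie below their control arrays for each complex, while at day 8 the groups overlap.

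How far the subunit genes lay below 0 depended on how the arrays were put on one scale. With quantile normalisation the median over the 37 genes was -0.025 without and -0.058 with PE, and on a common median it was -0.021 and -0.14, where the median over all genes itself moved to 0.17 and 0.12. With array brightness as a covariate it was -0.10 and -0.18. In 5 of the 6 groups, the array that was brightest before scaling had the lowest median of the 37 genes, and in 5 of 6 the dimmest had the highest. The complexes separated more under 2 of these settings, quantile normalisation and the brightness covariate, and not on the common median: with quantile normalisation the median without PE was -0.12 in complex III, -0.013 in complex IV and -0.025 in complex V, and with PE it was -0.14, -0.016 and -0.091. Under the brightness covariate it was -0.17, -0.073 and -0.10 without PE and -0.24, -0.10 and -0.17 with PE. On the common median scale it was -0.035, -0.030 and -0.0042 without PE and -0.19, -0.11 and -0.15 with PE. Complex III thus had the value farthest below 0 on all 4 scales, without and with PE. No test between complexes was made.

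**Figure D5:**
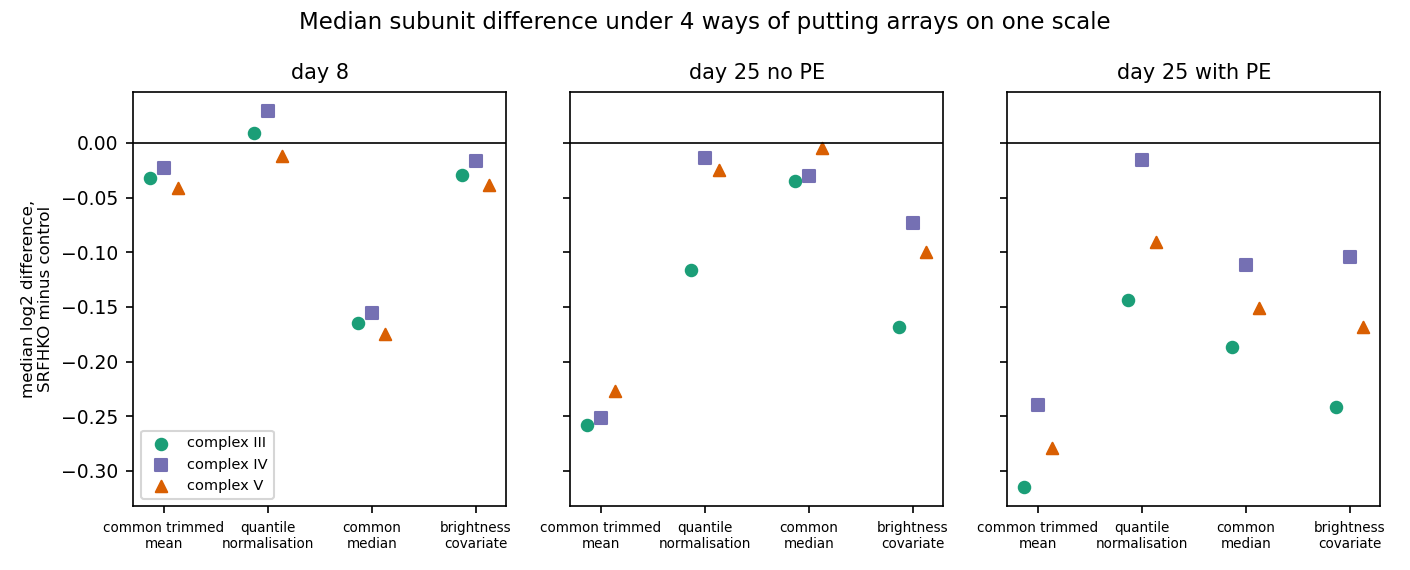
Median difference between SRFHKO and control hearts over the genes of each complex, in log2(scaled signal + 2), under 4 ways of putting the arrays on 1 scale. At day 25 the medians lie nearer 0 under each alternative than under the common trimmed mean.

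At day 8, no subunit gene passed (limma), where 0.0634% of all genes passed. At an unadjusted p below 0.05, 4 were lower in SRFHKO, as 4.85% of all genes and 9.48% of the equally bright genes were, and 0 were higher. The median was -0.041 over the 37 genes, with -0.032 in complex III, -0.023 in complex IV and -0.041 in complex V. Over all genes it was -0.010, and over the equally bright genes -0.057. The smallest p belonged to Uqcrc2, with 5917, 5773, 6899.8 and 6432 in the 4 SRFHKO hearts against 8348 and 6802 in the 2 control hearts (-0.27 ± 0.10, limma adjusted p = 0.426). Cox6a1 had 1826, 2018, 1717 and 2259 against 2762 and 2402, the only gene lower in SRFHKO without overlap, which 9.67% of all genes were (-0.41 ± 0.16, limma adjusted p = 0.456). Higher in SRFHKO without overlap, as 9.1% of all genes were, were Atp5g2 (0.16 ± 0.092) and Uqcr11, with 4332, 4256, 4502 and 4290.0 against 4254 and 4158 (0.047 ± 0.087), and neither passed. None of the genes called at day 25 passed at day 8. Uqcrc1 had 4285, 4174, 4873 and 4792 in SRFHKO hearts against 5076 and 4209 in control hearts, and Uqcrfs1 had 4702, 4409, 5119 and 4896 against 5236 and 4515. Atp5g1 had 5758, 5507, 6198 and 6205 against 6568 and 5608, Atp5a1 6466, 7041, 6932 and 6988 against 7382 and 6682, and Cyc1 4964, 4378, 5502 and 5029 against 6512 and 5147, with overlap in all 5.

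Cox8a had 525, 560.4, 476 and 481 in SRFHKO hearts at day 8, against 525 and 474 in control hearts, so the groups overlapped (0.031 ± 0.10). Cox8b had 4853, 4875, 5137 and 5458 against 5579.5 and 4548 and Cox6a2, on its brighter probe set, 6543, 7349.9, 7892 and 7978 against 7604 and 6913. Cox7a1 had 5228, 4675, 4956 and 4792 against 5251 and 4378 and Cox7a2 6912, 7234, 7671 and 7977 against 8801 and 6702. None of these isoform genes passed at day 8. The endothelial marker sum at day 8 was higher in SRFHKO without overlap, at 3048 to 3397 against 2726 to 2933. The fibroblast sum was lower, at 5557 to 8027 against 8367 to 13283, and so was the skeletal muscle sum, at 14.5 to 32.0 against 33.2 to 37.3. The cardiomyocyte, macrophage and adipocyte sums and Cidea overlapped, and the part of these markers was not tested. The difference between day 25 and day 8, the interaction of day and genotype, passed for 0 of the 37 genes and for 0 of 12610 genes (limma). All day-8 arrays were brighter before scaling than all day-25 arrays, and the part of this in comparisons between the days was not tested. At an unadjusted p below 0.05, 8 subunit genes were lower, as 6.05% of all genes and 11.6% of the equally bright genes were, and 1 was higher. The smallest p was that of Cox8a (0.59 ± 0.14, limma adjusted p = 0.122), so a difference between the days was not shown for any subunit gene. On the common median scale 1 of the 37, Cox8a, passed this test, as did 3.1% of all genes.

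PE itself changed no subunit gene past the threshold in either genotype. In control hearts 0 of the 37 passed (limma), where 0.0397% of all genes passed. At an unadjusted p below 0.05, 5 were lower (6.15% of all genes and 10.8% of the equally bright genes), and 12 were lower without overlap (8.68% and 20.3%). In SRFHKO hearts 0 passed (limma), where 0.262% of all genes passed. Here 13 were lower at an unadjusted p below 0.05 (5.24% of all genes and 26.3% of the equally bright genes) and 17 without overlap (8.4% and 34.9%). The median difference between PE and no PE was -0.14 in control and -0.17 in SRFHKO hearts. Over all genes it was -0.032 and -0.0063, and over the equally bright genes -0.0695 and -0.143. In each genotype 36 of 37 values were below 0. Of the equally bright genes, 66.8% were below 0 in control and 78.9% in SRFHKO hearts. By complex the median was -0.14 (III), -0.14 (IV) and -0.13 (V) in control hearts and -0.17 (III), -0.16 (IV) and -0.17 (V) in SRFHKO hearts. In control hearts the sign turned on the common median scale, to 0.017. In control hearts the smallest p was that of Cox7a1, with 5797, 5875 and 5639 with PE against 7701, 8422 and 6928 without PE, lower without overlap (-0.41 ± 0.12, limma adjusted p = 0.224). In SRFHKO hearts it was that of Uqcrfs1, with 3675, 3943 and 4113 with PE against 5112, 4444 and 5016 without PE, also without overlap (-0.31 ± 0.088, limma adjusted p = 0.147). These comparisons share their arrays with the comparisons of genotype above.

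The 6 other lists of the pathway, each fixed by name with earlier results known, had 48 measured members. At day 25 without PE, 1.21% of all genes and 9.05% of the genes as bright as the subunit genes passed as lower. No set matched to the brightness of these lists was taken. Of the 48, 4 (8.33%) passed as lower, 1 in each of 4 lists, and none passed as higher. Cox10, which makes the heme of complex IV, was the gene among 19 measured assembly factors of complex IV (-0.67 ± 0.17, limma adjusted p = 0.0428). Sdhb, the iron-sulfur subunit of complex II, was the gene among 6 (-0.44 ± 0.11, limma adjusted p = 0.0326), and Vdac1, a channel of the outer membrane, the gene among 6 carriers and channels of ATP and phosphate (-0.44 ± 0.11, limma adjusted p = 0.034). Cox7a2l was the gene among 9 further subunits and regulators (-0.35 ± 0.090, limma adjusted p = 0.0425). None of the 5 measured assembly factors of complex III or the 3 of ATP synthase passed, with the smallest p in Uqcc1 (-0.40 ± 0.14, limma adjusted p = 0.149) and Atpaf2 (-0.24 ± 0.21, limma adjusted p = 0.576). The median was -0.020 over the assembly factors of complex IV, -0.084 in complex II and -0.15 over the carriers and channels.

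With PE, no member of these lists passed (limma), and the smallest p in each belonged to Ttc19 (-0.36 ± 0.13), Surf1 (-0.29 ± 0.096), Tmem70 (-0.40 ± 0.13), Usmg5 (-0.40 ± 0.10), Slc25a3 (-0.34 ± 0.097) and Sdha (-0.33 ± 0.089), with adjusted p from 0.0564 to 0.178. The assembly factors of complex IV again had a median nearer 0, at -0.10, than the subunits of complex IV, at -0.24. At day 8 none passed, with the smallest p in Uqcc3, Cox18, Tmem70, Cox6b2, Vdac3 and Sdhaf1 (limma adjusted p from 0.264 to 0.715). PE passed for no member of these lists in control hearts, where the smallest p were those of Ttc19, Cox15, Tmem70, Cox8c, Slc25a5 and Sdha (limma adjusted p from 0.248 to 0.683). The same held in SRFHKO hearts, for Uqcc1, Surf1, Tmem70, Cox6b2, Slc25a4 and Sdha (limma adjusted p from 0.121 to 0.556). Neither interaction passed for any of them (limma). Their smallest p were those of Ttc19, Surf1, Tmem70, Cox8c, Slc25a5 and Sdhc for PE and genotype (adjusted p from 0.586 to 0.824) and of Uqcc1, Cox10, Tmem70, Cox7a2l, Vdac1 and Sdha for day and genotype (0.286 to 0.617).

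Of the 37 genes, 23 had more than 1 probe set passing the filter. The 18 further probe sets that were as bright as the 35 brighter genes had a median difference of -0.23 at day 25 without PE and -0.305 with PE, and 16 and 18 of them had the sign of the chosen probe set of their gene. Of these 18, 1 passed without PE, a second probe set of Atp5k, which was lower (-0.36, limma adjusted p = 0.0434 over all probe sets), and 0 with PE (limma). The 9 dimmer ones with a mean signal above 100 had a median of 0.22 without and -0.038 with PE, and 4 and 7 shared the sign. Among these 9, the second probe sets of Cox8a (higher) and Cox6a2 (lower) passed without PE and that of Cox6a2 with PE, as given above. Over all 27000 probe sets, 2.19% passed without and 0.93% with PE. The remaining 6 had a mean signal of 100 or less, and none passed (limma).

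RefSeq windows of 250 bases before to 50 bases after the gene start (assembly GRCm38.p6) were found for 30 of the 38 genes. Both strands were searched for the motifs of GABP, NRF1, estrogen-related receptors and YY1, which are known to act on genes of the respiratory chain. The TATA box, the CArG box of SRF and the MEF2 motif were also searched. CCGGAAGT, bound by GABP, lay in windows of 4 genes (Uqcrh, Uqcr11, Cox8a and Atp5h) and in 3.89% of all 32851 windows. The motif of NRF1, whose letters are in capitals in the Uqcrc1 window below, lay in 4 (Uqcrc1, Cox6a1, Atp5g2 and Atp5k) against 0.971% of windows. AAGGTCA, bound by estrogen-related receptors, lay in 4, all of ATP synthase (Atp5e, Atp5g3, Atp5k and Atp5l), against 4.72%. AAGATGG, bound by YY1, lay in 4 (Cox7c, Atp5f1, Atp5j and Atp5j2) against 6.34%, and TATAAA lay in 2 (Cox8b and Atp5l) against 13.6%. The CArG box, the motif that SRF binds, lay in none of the 30 genes and in 1.63% of windows, and the MEF2 motif in none and in 3.19%. A match is no proof of a binding site, and a missing match says only that these letters are not in the window. No 2 matches overlapped.

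The windows of 4 genes are shown 5′ to 3′ on the strand of the gene: Cox8a, which rose, beside its muscle counterpart Cox8b, and the 2 complex III genes that fell without PE. They are Cox8a (chr19:7217567-7217866, minus strand), Cox8b (chr7:140900397-140900696, minus), Uqcrc1 (chr9:108936398-108936697, plus) and Uqcr11 (chr10:80406772-80407071, minus). Capitals mark the GABP motif in Cox8a (2 matches, on the opposite strand) and in Uqcr11 (1 match), TATAAA in Cox8b and the NRF1 motif in Uqcrc1.
Cox8a: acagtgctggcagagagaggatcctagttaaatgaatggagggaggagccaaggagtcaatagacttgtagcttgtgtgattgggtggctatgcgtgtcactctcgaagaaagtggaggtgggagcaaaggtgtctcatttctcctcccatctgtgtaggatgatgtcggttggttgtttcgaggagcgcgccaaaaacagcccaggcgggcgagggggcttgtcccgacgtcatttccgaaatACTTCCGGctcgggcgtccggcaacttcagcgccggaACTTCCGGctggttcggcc
Cox8b: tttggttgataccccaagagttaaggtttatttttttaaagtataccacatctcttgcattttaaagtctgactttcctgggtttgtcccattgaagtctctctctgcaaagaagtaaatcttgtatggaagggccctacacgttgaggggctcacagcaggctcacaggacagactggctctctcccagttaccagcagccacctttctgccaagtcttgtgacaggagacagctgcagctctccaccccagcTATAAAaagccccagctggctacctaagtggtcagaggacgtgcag
Uqcrc1: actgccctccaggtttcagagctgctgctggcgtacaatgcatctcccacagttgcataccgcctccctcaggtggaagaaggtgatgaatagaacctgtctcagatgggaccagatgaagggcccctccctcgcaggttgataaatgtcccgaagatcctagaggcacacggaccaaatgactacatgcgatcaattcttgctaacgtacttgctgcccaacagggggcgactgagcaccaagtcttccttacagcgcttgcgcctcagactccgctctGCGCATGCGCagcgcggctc
Uqcr11: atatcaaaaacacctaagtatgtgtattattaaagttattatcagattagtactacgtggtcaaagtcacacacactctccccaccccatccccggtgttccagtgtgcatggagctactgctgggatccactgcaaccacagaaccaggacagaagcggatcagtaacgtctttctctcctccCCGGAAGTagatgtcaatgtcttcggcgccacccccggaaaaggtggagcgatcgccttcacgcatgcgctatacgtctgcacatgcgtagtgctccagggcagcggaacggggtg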

How the data were processed

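The subunit genes and gene lists were chosen with earlier results of these data known. Biotin-labelled cRNA of 18 hearts was hybridised to Affymetrix arrays, per the labels' protocols. The authors deposited 1 linear intensity per probe set (45101) and array, made with GCOS per the submitters' processing notes. No source used here gives the GCOS version, signal algorithm or scaling.

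Each array's intensity was scaled to a common 2% trimmed mean, a pseudocount of 2 was added and log2 was taken. After leaving out 64 control probe sets and those with a mean below the 40th percentile (log2 value 3.58), 27000 remained. Symbols of the platform annotation were brought up to date by gene ID from RefSeq (GRCm38.p6): 34945 probe sets had 1 symbol, 932 had several and 9160 had none. The probe set of highest mean stood for each of 12610 genes. Folds understate changes of dim genes.

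Groups came from the sample titles, which call the replicates biological. One limma model (version 3.58.1, R 4.3.3) with a mean per group and an intensity trend was fitted over the 18 arrays, with Benjamini-Hochberg adjustment over all genes, two-sided, threshold 0.05. An exact test of 3 against 3 cannot go below p = 0.1. The steps were tested on simulated data. Values in every array are given for genes past the threshold in any contrast and for the isoform pairs, and for contrasts or lists with no call the gene of smallest p is named. Alternatives were quantile normalisation, a common median scale, other pseudocounts, no filter, other choices of probe set, fits of the compared groups alone, a replicate block, array brightness as a covariate and leaving out each array. Those on the second Cox6a2 probe set were added after seeing the data.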

Additional observations from a re-analysis of the deposited data

Results flagged for a closer look

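Uqcr11, a small subunit of complex III, had differences of opposite sign at the 2 days, with no overlap between genotypes at either. At day 8 the difference between SRFHKO and control hearts was 0.047 ± 0.087, and at day 25 without PE it was -0.44 ± 0.082. The test of that difference itself, limma's interaction of day and genotype, gave -0.49 and an adjusted p of 0.129, and so did not pass. The day-8 comparison rests on 2 control hearts. The groups were barely apart there, with 4256 as the lowest SRFHKO and 4254 as the highest control value. Of all genes, 9.1% were higher in SRFHKO without overlap at day 8, and 12.6% were lower at day 25 without PE. No array stood apart from its group for any of the 37 genes in the group of 4 SRFHKO hearts at day 8, the only group large enough for that check.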

How the results depend on the processing

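Quantile normalisation gave a median over the 37 genes of -0.025 at day 25 without PE and -0.058 with PE. It gave 2 calls with PE in place of 5, where 1.51% of all genes were called. The medians for PE were -0.029 in control and -0.049 in SRFHKO hearts. On a common median scale, which moved the median of all genes to -0.14 at day 8, 0.17 at day 25 without PE and 0.12 with PE, the medians were -0.175, -0.021 and -0.145. There the median for PE in control hearts turned to 0.017, with all genes at 0.12, and 1 gene, Cox8a, was called at day 25 without PE, with PE and for the interaction of day and genotype, where 6.74%, 1.31% and 3.1% of all genes were. With PE, no filter gave 2 calls (0.918% of all genes) and the mean of all probe sets 3 (1.33%), of which Cox6a2 was not among the 5. Fits of the compared groups alone left 1 call without PE (0.412% of all genes) and 2 with PE (0.975%). Brightness as a covariate left 1 call and a median of -0.10 without PE, and 0 calls and -0.18 with PE. Of all genes, 0.325% and 0.444% were called there. Deviations of same-numbered arrays correlated at only -0.086 to 0.090. Yet in every day-25 group replicate 2 was the brightest array before scaling and replicate 3 the dimmest. Whether same-numbered arrays share more than a number was therefore not settled. The replicate block gave 9 calls without PE, where 2.73% of all genes were called, and 12 with PE, where 1.92% were. Leaving out 1 array at a time gave 1 to 5 calls without PE and 0 to 5 with PE, and a median at day 8 of -0.155 to 0.067. At day 25 that median was -0.29 to -0.18 without PE and -0.32 to -0.23 with PE. Cox8a kept its call without PE in all 16 settings, and none of the 9 gene calls at day 25 reversed in any. The second Cox6a2 probe set kept its call without PE in 10 of 10 settings added after seeing the data and with PE in 5 of 10. Of 204 results over all settings of the counts and medians, 173 were kept, and the causes of the others were not tested. Many of the 173 are counts of 0 that stayed 0, and small moves of a count or median were taken as kept. This total therefore says little about the calls. The count of calls with PE was kept in only 1 of the 6 fits that left out 1 array. Genes near the filter limit, such as Cox7c, have the least precise values.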
